A study of Homo sapiens with 4 samples.

Results

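Translation initiation factors load messenger RNA and the initiator tRNA onto the small ribosomal subunit. The eIF4 proteins bind the cap and unwind the leader, eIF2 carries the initiator tRNA, eIF3 is the large scaffold on the small subunit, and eIF1, eIF1A and eIF5 govern the choice of start codon. The pathway is restrained at defined points, by EIF2AK kinases that phosphorylate eIF2 and by EIF4EBP proteins that keep the cap-binding protein eIF4E from eIF4G. The genes described here are the protein-coding genes whose symbol begins with EIF1 to EIF6, which gave 56 genes among the 62700 gene identifiers of the count tables. Of these, 49 encode factors or their close relatives, 4 are EIF2AK kinases and 3 are EIF4EBP repressors.

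The RNA came from HEK293T, an established line of human embryonic kidney origin, and was sequenced after poly(A) selection. The cells received a construct for RPB1, the largest RNA polymerase II subunit, in a form that resists α-amanitin. In the WT group the C-terminal domain (CTD) of RPB1, its tail of heptad repeats, had the wild-type sequence, while T4A cells had alanine in place of threonine 4 of the heptad. In both groups α-amanitin, a toxin that removes the cell's own RPB1, was added 1 day after transfection at 2.5 µg/ml for 48 hours. Each group had 2 libraries, and since both constructs were introduced by transient transfection into 1 line, the comparison describes pools of transfected cells.

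The libraries held between 19257217 and 33063535 counts, and the WT libraries were the deeper ones. POLR2A, the gene of RPB1, took 0.520 and 0.535% of the reads assigned in T4A and 0.383 and 0.287% in WT. Transcripts of the construct and of the cell's own gene are counted together there, so its level is no check of the construct, and the part of this difference in the results was not tested. Of the markers of the line, VIM and NEFL had at least 112 CPM in every library, PAX2 was low at 2.42 to 4.44 CPM, and the blood genes PTPRC, HBB and CD3E had between 0 and 4 counts. Of the 7 markers of the line VIM and KRT8 rose and NEFL and CDH2 fell, and of the markers of other cell types, which reached 33.1 CPM in COL1A1, none was called; their part in the results was not tested. Levels are counts per 1000000 (CPM) after TMM scaling, which are shares of a library, so a change common to all transcripts cannot be seen. Fewer cells that express a gene and less of its RNA per cell cannot be told apart.

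The comparison of T4A with WT asked which transcripts differ when Thr4 of the CTD is replaced. Both directions occurred among the initiation factors. EIF1, EIF2S2, EIF5A and 6 of 14 eIF3 genes rose, the 3 eIF4G genes and EIF3A fell, and the genes for eIF4E, eIF4A2, eIF4A3, eIF4B and eIF4H did not pass the test. The threshold for a call was an adjusted p of 0.05 in edgeR's quasi-likelihood test with Benjamini-Hochberg adjustment over 18139 genes. Of the 56 genes, 53 had enough counts to be tested, 11 rose, 10 fell and 32 were not called. Of all genes tested, 10.7% rose and 13.0% fell.

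Among the 46 factor genes tested, 10 rose and 6 fell, with a median log2 fold change of 0.05 beside -0.01 over all genes tested. Initiation factor genes are highly expressed, and well-counted genes pass a test more readily. Of the 27 factor genes that averaged 50 CPM or more, 9 rose and 5 fell, where 38.5% of all genes at that level rose and 25.8% fell. The number of called factor genes was thus not above that of other genes of such a level. The 2 groups did not overlap for 36 of the 53 genes tested, where this held for 59.0% of all genes tested.

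**Figure D1:**
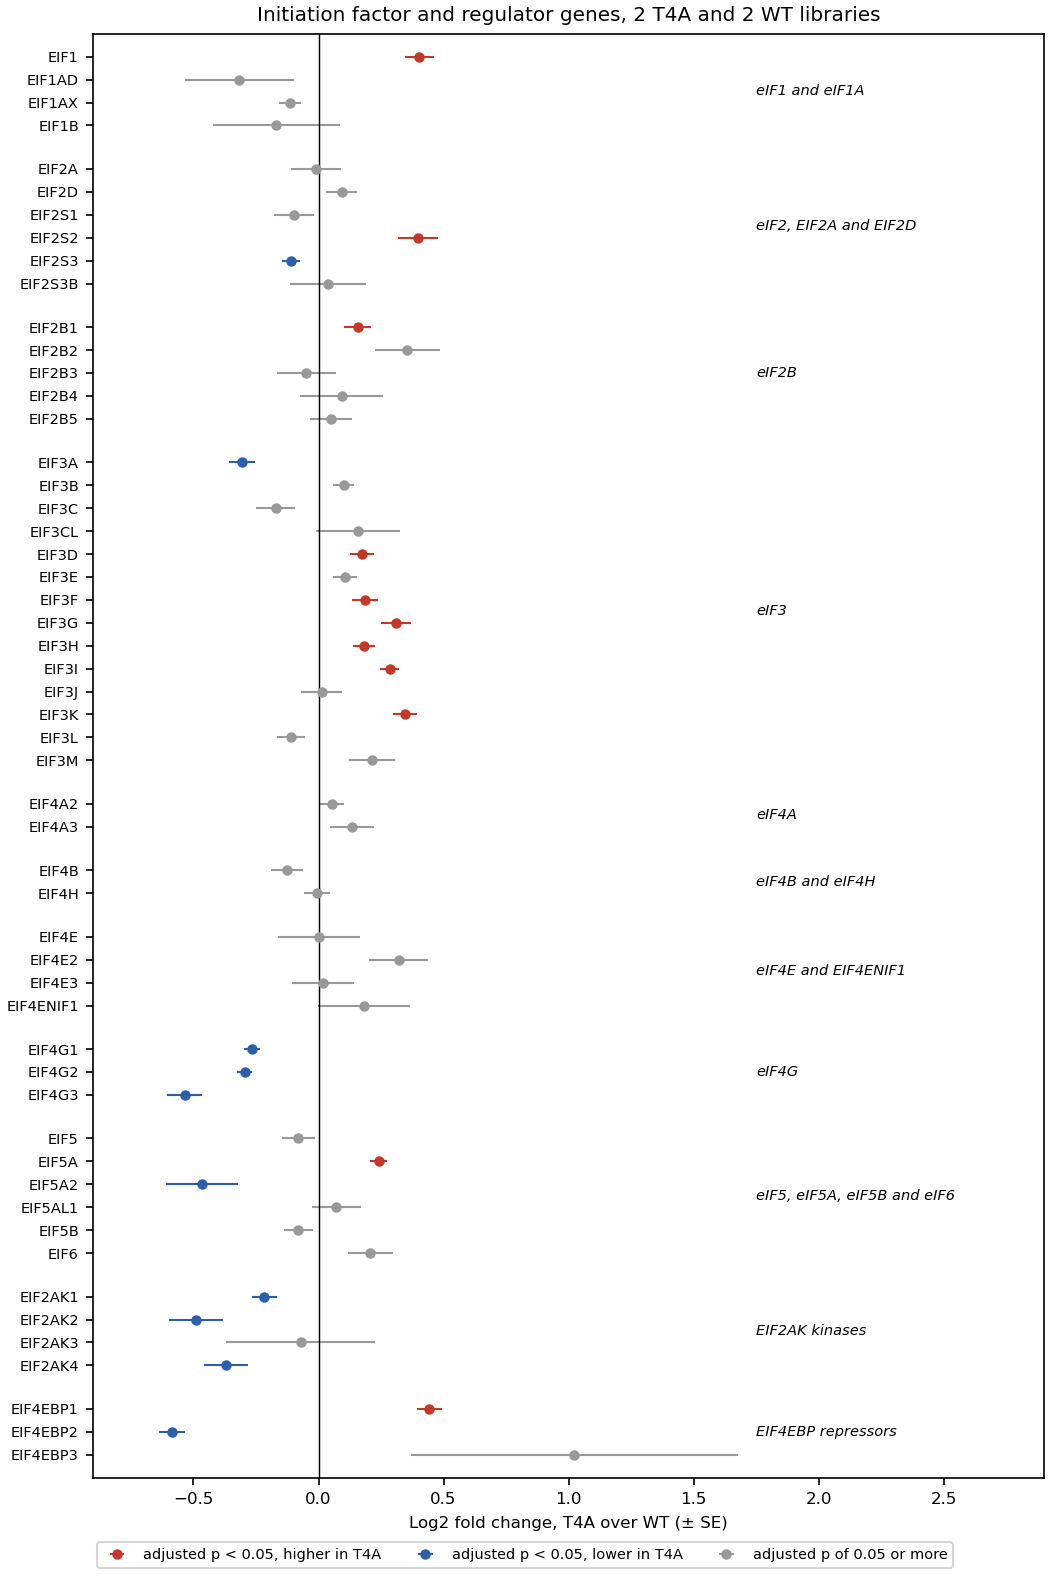
Log2 fold change of T4A over WT with its standard error (horizontal axis) for the 53 tested genes, grouped by factor, with genes called higher in red, called lower in blue and not called in grey. The 3 eIF4G genes lie between -0.53 and -0.26, and 11 of the 14 eIF3 genes lie above 0.

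The first step of initiation places eIF1 and eIF1A beside the decoding site. EIF1 (chromosome 17, 41688885 to 41692668, GRCh38), the gatekeeper of start codon choice, measured 154 and 139.9 CPM in the T4A libraries against 111 and 111 CPM in the WT libraries. Both T4A libraries lay above both WT libraries, and the log2 fold change was 0.40 ± 0.06 (SE, adjusted p = 2.99e-05). EIF1AX, the eIF1A gene of the X chromosome, was at 269.9 and 259 against 293 and 279 CPM (log2 fold change -0.11 ± 0.04, adjusted p = 0.0728). EIF1B, a paralog of EIF1, had a log2 fold change of -0.17 ± 0.25 and EIF1AD, which encodes a protein with an eIF1A-like domain, one of -0.32 ± 0.22. Both had under 7 CPM in every library and were not called. EIF1AY had no counts in any library and was not tested.

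The trimer eIF2 consists of EIF2S1, the subunit phosphorylated by the EIF2AK kinases, EIF2S2 and EIF2S3, the subunit that binds GTP. Its 3 genes did not move together. EIF2S2 (chromosome 20, 34088309 to 34112243) rose from 42.3 and 42.0 CPM in WT to 53.7 and 57.6 CPM in T4A (log2 fold change 0.40 ± 0.08, adjusted p = 0.000978). EIF2S1 was at 49.3 and 53.7 CPM in T4A and 53.4 and 56.8 CPM in WT, values that overlapped. EIF2S3 fell by 0.11 ± 0.04 on the log2 scale (611 and 640.2 against 681 and 669.8 CPM, adjusted p = 0.0325), a small difference that lost its call without T4A replicate 1 or without WT replicate 1. DESeq2, median-ratio factors and upper quartile factors also gave no call for EIF2S3. The paralog EIF2S3B, whose reads may be shared with EIF2S3, had 10.8 and 11.3 against 10.9 and 10.6 CPM. EIF2A and EIF2D, which can deliver tRNA without eIF2, had log2 fold changes of -0.01 ± 0.10 and 0.09 ± 0.06 and were not called.

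The exchange factor eIF2B reloads eIF2 with GTP and has 5 subunits. EIF2B1, its regulatory alpha subunit, rose by a small step, from 118 and 115 CPM to 130.4 and 128 CPM (log2 fold change 0.16 ± 0.06, adjusted p = 0.0454). This call was lost whichever of the 4 libraries was left out. EIF2B2 stood higher, at 16.5 and 15.8 against 13.0 and 12.3 CPM, with groups that did not overlap, but missed the threshold (log2 fold change 0.35 ± 0.13, adjusted p = 0.0557). EIF2B3, EIF2B4 and EIF2B5, the catalytic subunit, had overlapping groups and log2 fold changes between -0.05 and 0.09.

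Of the 14 eIF3 genes tested, 6 rose, 1 fell and 7 were not called, and their median log2 fold change was 0.17. Their median level was 139 CPM, and of all genes at 50 CPM or more 38.5% rose and 25.8% fell, so the number of rises was near that of other genes of such a level. EIF3K (chromosome 19, 38619188 to 38636954), a small subunit of the octamer core, had 219.7 and 226 CPM in T4A against 175 and 175 CPM in WT (0.35 ± 0.05, adjusted p = 1.47e-05). EIF3I (chromosome 1, 32222407 to 32236170), a WD-repeat subunit bound beside eIF3b, had 538 and 530.2 against 439.8 and 437 CPM (0.28 ± 0.04, adjusted p = 8.49e-06). For both genes the spread within a group was far smaller than the gap between groups. EIF3G, an RNA-binding subunit, rose from 91.3 and 91.5 to 114 and 113 CPM (0.31 ± 0.06, adjusted p = 0.000517).

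Smaller rises of about the same size were measured for 3 further subunits. EIF3H had 239.9 and 239 CPM in T4A against 211 and 211 CPM in WT (0.18 ± 0.04, adjusted p = 0.00464). EIF3F, like EIF3H a subunit with an MPN fold, had 146 and 147 against 126 and 131 CPM (0.19 ± 0.05, adjusted p = 0.0145). EIF3D, a subunit that can itself bind the cap, had 206 and 203 against 186 and 177 CPM (0.17 ± 0.05, adjusted p = 0.012). The calls of EIF3F and EIF3D were each lost without 1 library, WT replicate 1 for EIF3F and WT replicate 2 for EIF3D. With library totals in place of TMM factors, EIF3D, EIF3F, EIF3H and EIF2B1 were no longer called.

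EIF3A (chromosome 10, 119033670 to 119080817), the largest subunit and the backbone of the complex, went the other way. It measured 125 and 126 CPM in T4A and 158 and 152 CPM in WT, and fell by 0.31 ± 0.05 on the log2 scale (adjusted p = 0.000221). Within the octamer core, made of EIF3A, EIF3C, EIF3E, EIF3F, EIF3H, EIF3K, EIF3L and EIF3M, 3 genes rose and 1 fell. Of the 5 genes outside it, EIF3B, EIF3D, EIF3G, EIF3I and EIF3J, 3 rose and 0 fell (0 also in DESeq2, in limma-voom and at an unadjusted p under 0.05). The remaining subunits were not called. EIF3B (0.10 ± 0.04), EIF3E (0.11 ± 0.05) and EIF3M (0.21 ± 0.09) had both T4A libraries above both WT libraries, EIF3C (-0.17 ± 0.08) and EIF3L (-0.11 ± 0.06) had both below, and EIF3J (0.01 ± 0.08) overlapped. EIF3L shares 41.1% of its exonic bases with a long noncoding RNA (lncRNA) gene on the same strand, and how such reads were counted was not tested. EIF3C and EIF3CL are close copies, so how reads were split between them is uncertain, and EIF3CL had a log2 fold change of 0.16 ± 0.17.

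Levels within eIF3 were compared in transcripts per 1000000 (TPM), which divides counts by the length of the canonical transcript. Leaving out the copy EIF3CL, the subunit genes in WT ran from 13.0 TPM for EIF3M to 523 TPM for EIF3I, with EIF3K at 384 TPM and EIF3A at 39.4 TPM, although the proteins form 1 complex. The ratio of EIF3K to EIF3A in TPM was 15.2 and 15.5 in T4A against 9.56 and 9.96 in WT, with no overlap. Their transcripts have 772 and 6659 bases, and the part of the length trend described below in this ratio was not tested. The TPM of EIF3F depends on an annotated transcript of 6920 bases, which is long for this gene and lowers its value. That of EIF3M, the low end of the range, likewise rests on a transcript of 5047 bases, of which 1122 are coding.

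The cap-binding complex eIF4F joins the cap-binding protein eIF4E, the helicase eIF4A and the scaffold eIF4G. The 3 scaffold genes were all lower in T4A. EIF4G1 (chromosome 3, 184314606 to 184335358), the main scaffold, had 1060.0 and 1044 CPM in T4A against 1282 and 1245 CPM in WT, a fall by 0.26 ± 0.03 on the log2 scale (adjusted p = 3.60e-06). EIF4G2 (chromosome 11, 10797046 to 10808926), a relative that lacks the eIF4E-binding part and serves cap-independent initiation, had 1311 and 1291 against 1633 and 1561 CPM and fell by 0.30 ± 0.03 (adjusted p = 8.59e-07). EIF4G3 (chromosome 1, 20806292 to 21176897), a scaffold paralog, had 62.3 and 62.1 against 93.9 and 86.4 CPM and fell by 0.53 ± 0.07 (adjusted p = 9.03e-06). In each of the 3 genes the groups were apart by more than the spread within them, without overlap. Their direction held under each normalization tried, but with a trend on coding length removed, as described below for transcript length, none of the 3 was called and EIF4G1 was at 0.08 (EIF4G2 at -0.095, EIF4G3 at -0.18).

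Of the other 8 tested genes of the eIF4 group none was called by edgeR or DESeq2, while limma-voom called EIF4E2 higher, the 1 gene of them with an unadjusted p under 0.05. EIF4E had 9.39 and 9.46 CPM in T4A and 9.87 and 8.94 CPM in WT (log2 fold change 0.00 ± 0.16). EIF4E2, a cap-binding homolog that represses translation, was at 24.4 and 23.8 against 17.3 and 21.4 CPM (0.32 ± 0.12, adjusted p = 0.0538). EIF4E3, another cap-binding homolog, and EIF4ENIF1, which shuttles eIF4E into the nucleus, had log2 fold changes of 0.02 ± 0.12 and 0.18 ± 0.18 with overlapping groups. EIF4E1B, an oocyte homolog, had 2, 12, 7 and 7 counts in T4A replicates 1 and 2 and WT replicates 1 and 2 and was not tested. The helicase gene EIF4A2 (0.05 ± 0.05) and EIF4A3 (0.13 ± 0.09), a core protein of the exon junction complex, were not called, nor were the helicase cofactors EIF4B (-0.13 ± 0.06) and EIF4H (-0.01 ± 0.05).

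EIF4A1, the main helicase gene of eIF4F and one that every dividing cell uses, was listed at 0 counts in all 4 libraries. In the annotation, 28.2% of its exonic bases also belong to the read-through gene SENP3-EIF4A1 and 42.1% to an lncRNA gene on the same strand (ENSG00000264772). SENP3-EIF4A1 had 17, 15, 30 and 28 counts in T4A replicates 1 and 2 and WT replicates 1 and 2, and the lncRNA had 142, 141, 118 and 105. The zero therefore cannot be read as absence of the transcript, and how the reads of EIF4A1 were handled in counting was not tested.

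After the start codon is found, EIF5 triggers GTP hydrolysis by eIF2, EIF5B joins the subunits, EIF6 keeps the large subunit apart and EIF5A acts on the elongating ribosome. EIF5A (chromosome 17, 7306999 to 7312463) had 1903 and 1754 CPM in T4A against 1549 and 1547 CPM in WT (0.24 ± 0.03, adjusted p = 2.80e-05). Its paralog EIF5A2 (chromosome 3, 170888418 to 170908637) went the opposite way, with 10.1 and 10.4 against 13.8 and 14.6 CPM, a fall by 0.47 ± 0.14 (adjusted p = 0.0219) whose call was lost without either WT library. DESeq2 and upper quartile factors gave no call for EIF5A2 either. The ratio of EIF5A to EIF5A2 in TPM was 822 and 737 in T4A and 492 and 463 in WT. These transcripts have 1264 and 5534 bases, and the part of the length trend described below in this ratio was not tested. EIF5AL1, an intronless copy of EIF5A that may share its reads, had a log2 fold change of 0.07 ± 0.10. EIF5 (-0.08 ± 0.07), EIF5B (-0.08 ± 0.06) and EIF6 (0.21 ± 0.09, adjusted p = 0.109) were not called.

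Of the 7 regulators, EIF4EBP1 rose, EIF4EBP2 and 3 kinases fell, and EIF2AK3 and EIF4EBP3 were not called, where 10.7% of all genes tested rose and 13.0% fell. Among all genes at 50 CPM or more, the level of EIF4EBP1, EIF4EBP2 and EIF2AK1, 38.5% rose and 25.8% fell. EIF4EBP1, the best known repressor of eIF4E and a target of mTOR, rose to 236 and 254 CPM in T4A from 177 and 184 CPM in WT (0.44 ± 0.05, adjusted p = 1.61e-06). EIF4EBP2 (chromosome 10, 70404145 to 70428618), its paralog, had 112 and 118 CPM in T4A and 175 and 171 CPM in WT and fell by 0.59 ± 0.05 (adjusted p = 1.06e-07), the smallest p of all 53 genes. The ratio of EIF4EBP1 to EIF4EBP2 in TPM was 19.0 and 19.6 in T4A and 9.17 and 9.73 in WT, with no overlap. Here too a short transcript (827 bases) is set over a long one (7491 bases), and the part of the length trend was not tested. EIF4EBP3 had 13, 33, 17 and 16 counts in T4A replicates 1 and 2 and WT replicates 1 and 2 (1.02 ± 0.65, adjusted p = 0.299), and 73.2% of its exonic bases are shared with a read-through gene.

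Of the 4 eIF2 kinases, 3 fell, beside 13.0% of all genes tested and 25.8% of those at 50 CPM or more, a level that only EIF2AK1 reached. EIF2AK2, the kinase that senses double-stranded RNA, had 21.2 and 25.1 CPM in T4A and 34.5 and 30.4 CPM in WT and fell by 0.49 ± 0.11 (adjusted p = 0.00205). EIF2AK4, the sensor of uncharged tRNA, had 32.0 and 32.5 against 41.9 and 41.5 CPM and fell by 0.37 ± 0.09 (adjusted p = 0.0035). EIF2AK1, the haem-regulated kinase, had 169 and 162 against 195 and 189 CPM and fell by 0.22 ± 0.05 (adjusted p = 0.00287). The groups did not overlap for these 3 kinases. EIF2AK3, the kinase of the endoplasmic reticulum, was counted 68 and 63 times in T4A and 91 and 102 times in WT (log2 fold change -0.07 ± 0.30), a level at which a change of the size of the other 3 could not be seen.

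**Figure D2:**
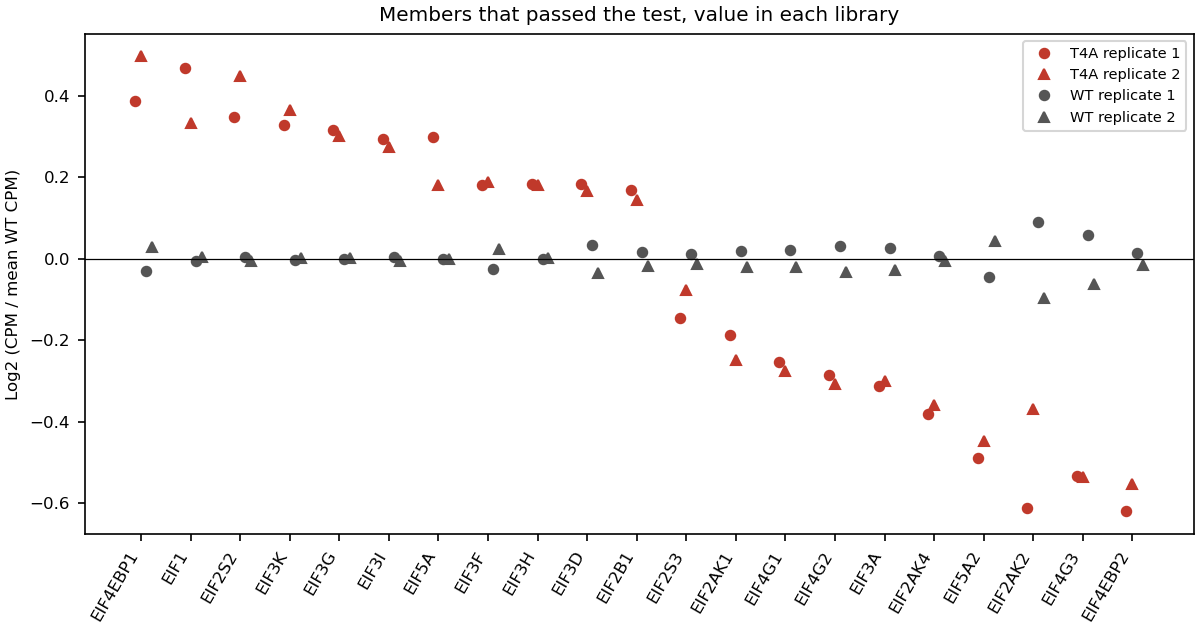
Log2 ratio of each library's CPM to the mean CPM of WT (vertical axis) for the 21 called genes, with T4A in red, WT in grey, circles for replicate 1 and triangles for replicate 2. In every gene plotted the T4A points do not overlap the WT points, and EIF2AK2 has the widest spread within its groups.

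Partner genes of initiation without an EIF symbol were counted from a list of 30 genes. Of these, 3 rose and 12 fell, where 23.6% of all genes tested were called in either direction, and their median log2 fold change was -0.17. Their median level was 56.4 CPM, and of all genes at 50 CPM or more 38.5% rose and 25.8% fell. GCN1, the coactivator of EIF2AK4, fell by 0.48 ± 0.04 (217 and 219 against 309.6 and 298 CPM). MTOR, the kinase that inactivates EIF4EBP proteins, fell by 0.46 ± 0.05 (110.3 and 111 against 155 and 149 CPM), while RPS6KB2, a kinase downstream of it, rose by 0.35 ± 0.05. ATF4, the transcription factor whose translation increases when eIF2 is phosphorylated, rose by 0.37 ± 0.05 (182 and 191 against 149.6 and 139 CPM). PPP1R15B, a subunit of the eIF2 phosphatase, fell by 0.55 ± 0.08, and the adjusted p of these 5 genes was at most 5.51e-05. With the length trend removed, as described below, GCN1 (-0.11, adjusted p = 0.128) and MTOR (-0.09, adjusted p = 0.345) were no longer called.

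Called direction followed transcript length. The median canonical transcript of the 53 tested genes was 2913 bases. Of the 27 genes at or under it, 9 rose and 0 fell, and of the 26 above it, 2 rose and 10 fell. DESeq2 and limma-voom also called 0 of the shorter genes lower, and at an unadjusted p under 0.05 edgeR gave 1, EIF3C. The 2 long genes that rose were EIF3F, whose annotated length is in doubt, and EIF3H, at 3961 bases. Across the 53 genes the log2 fold change had a Spearman rho of -0.61 with the length, and across 17876 genes tested with a length it was -0.42, so the trend was one of the whole comparison. These are correlations across genes, which share the same 4 libraries. In 20 length bins of all genes tested, the median log2 fold change went from 0.28 in the shortest bin to -0.44 in the longest.

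**Figure D3:**
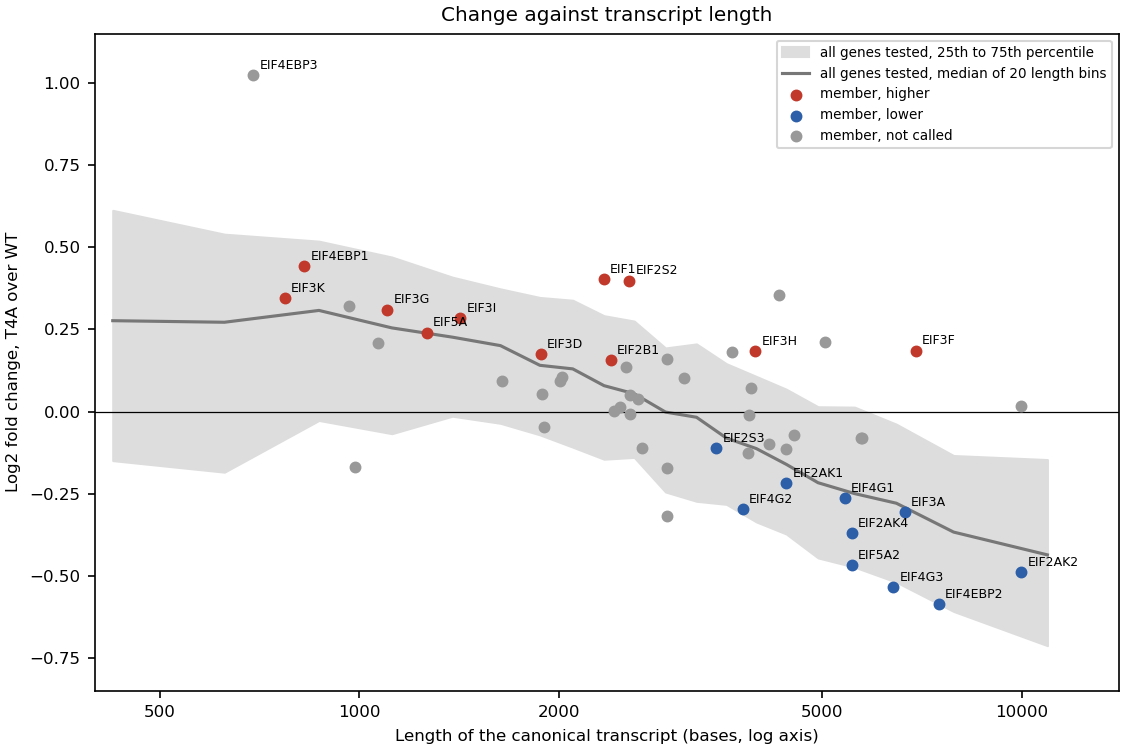
Log2 fold change of T4A over WT (vertical axis) against the length of the canonical transcript in bases (log axis) for the 53 tested genes, over the median (line) and the 25th to 75th percentile (band) of all genes tested in 20 length bins. EIF4G1, EIF3A and EIF2AK1 lie close to the line, while EIF1, EIF2S2 and EIF3F (whose annotated length is in doubt) lie above the band.

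The comparison was therefore repeated with the length trend of each library removed by gene-wise offsets. Of the 53 genes, 11 then rose and 3 fell, where 9.05% of all genes tested rose and 5.10% fell, and 11 of the 21 calls were lost. EIF1 (0.35, adjusted p = 0.000469), EIF2S2 (0.37, adjusted p = 0.004), EIF3F (0.50), EIF3H (0.31), EIF3I (0.14), EIF3K (0.18) and EIF4EBP1 (0.28) stayed higher. EIF4EBP2 (-0.25, adjusted p = 0.00332), EIF4G2 (-0.19, adjusted p = 0.000811) and EIF4G3 (-0.25, adjusted p = 0.0235) stayed lower. Among the genes that had risen, EIF5A (0.09, adjusted p = 0.0975), EIF3G (0.15, adjusted p = 0.0968), EIF3D (0.07) and EIF2B1 (0.11) were no longer called. Among those that had fallen, EIF4G1 (-0.03), EIF3A (-0.01), EIF2S3 (-0.03), EIF5A2 (-0.23) and the 3 kinases (-0.13 to -0.06) were no longer called. EIF2B2 (0.51), EIF3B (0.14), EIF3M (0.42) and EIF4E3 (0.43) were newly called. With a trend on coding length removed instead, EIF2AK2, EIF3D, EIF3G and EIF5A2 kept their calls. EIF3B was again called higher there, while EIF2B2, EIF3M and EIF4E3 were not called. The size of these values, and of that of EIF3F, depends on which transcript is taken for the length. Whether the trend arose in the cells or in the handling of the RNA was not tested.

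**Figure D4:**
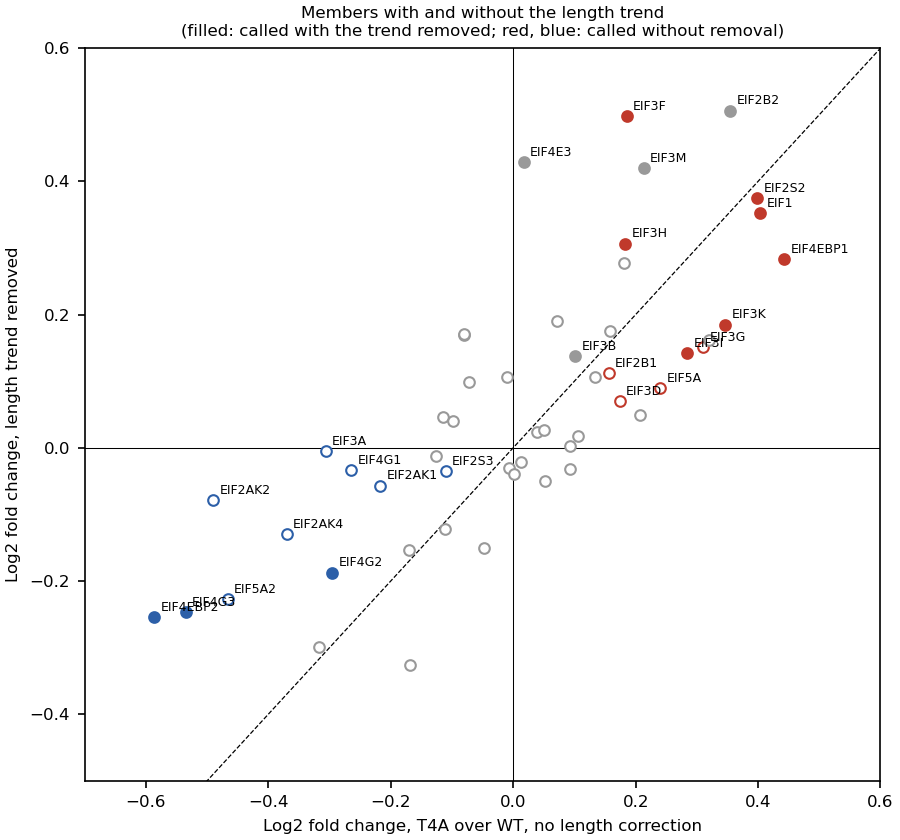
Log2 fold change of T4A over WT without (horizontal axis) and with (vertical axis) the length trend removed, for 52 genes (EIF4EBP3 lies outside the axes). Red and blue mark genes called without the removal and filled points those called with it, and the dashed line marks equal values. EIF4G1 and EIF3A move to near 0 and are no longer called, while EIF4EBP2 (from -0.59) and EIF4G3 (from -0.53) move to -0.25 and stay called.

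In TPM a gene is divided by the same length in T4A and WT, so its length drops out of their ratio. What differs from CPM is a factor for each library that is the same for all genes. By that measure the median gene was lower in T4A (log2 ratio -0.20 over 17876 genes). All genes of a library shift alike between the scales, so the directions below are no separate check of the calls. On the TPM scale the 10 genes that fell were all lower in both T4A libraries than in both WT libraries. Of the 11 that rose, 6 were higher in both T4A libraries than in both WT libraries. By the log2 ratio of mean TPM, 7 stayed positive, among them EIF5A (0.05), whose groups overlapped. EIF2B1 (-0.04), EIF3D (-0.02), EIF3F (-0.01) and EIF3H (-0.01) did not, and for EIF2B1 and EIF3D both T4A libraries lay below both WT libraries. Factor genes together took 0.879 and 0.874% of the counts of T4A and 0.926 and 0.929% of those of WT.

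Many messages of the translation apparatus begin with a terminal oligopyrimidine (TOP) start, a C followed by a run of C or T, through which mTOR governs their translation. RefSeq start windows of 300 bases (250 before and 50 from the annotated start, GRCh38.p14) were held for 47 of the 56 genes. A C followed by at least 4 C or T, beginning within 5 bases of the annotated start, occurred in 19 of the 44 tested genes with a window (43.2%). It occurred in 29.2% of 10947 tested protein-coding genes, in 21.1% of all 35116 windows and in 53 of 65 ribosomal protein genes. The windows below run from 20 bases before the start to 30 bases from it, with the pyrimidine run in capitals, and show called genes with and without such a run beside 2 genes that have it and were not called.
EIF3K: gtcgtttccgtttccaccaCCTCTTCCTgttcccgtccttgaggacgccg
EIF3D: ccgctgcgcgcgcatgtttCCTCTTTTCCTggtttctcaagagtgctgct
EIF3F: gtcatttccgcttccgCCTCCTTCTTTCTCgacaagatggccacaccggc
EIF3I: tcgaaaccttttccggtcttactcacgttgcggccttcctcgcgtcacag
EIF2S3: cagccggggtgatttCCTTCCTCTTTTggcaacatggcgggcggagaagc
EIF5A2: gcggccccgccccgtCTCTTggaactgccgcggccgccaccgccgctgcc
EIF4A2: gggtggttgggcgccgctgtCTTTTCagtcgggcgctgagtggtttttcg
EIF4B: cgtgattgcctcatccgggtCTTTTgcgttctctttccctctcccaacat

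These windows lie at chr19:38619168-38619217 for EIF3K, chr22:36529137-36529186 for EIF3D, chr11:7987317-7987366 for EIF3F, chr1:32222387-32222436 for EIF3I, chrX:24054936-24054985 for EIF2S3, chr3:170908608-170908657 for EIF5A2, chr3:186783557-186783606 for EIF4A2 and chr12:53006436-53006485 for EIF4B. EIF3D and EIF5A2 are on the minus strand and the others on the plus strand. Among the 19 genes with the run, 4 rose and 5 fell with a median log2 fold change of 0.01, and among the 25 without it 3 rose and 3 fell with a median of 0.02. Over all tested protein-coding genes, 445 of 3200 with the run rose and 547 fell, and 978 of 7748 without it rose and 1316 fell, with a median of -0.03 in both. EIF3K and EIF3D, with the run, and EIF3I, without it, all rose, while EIF2S3 and EIF5A2, with the run, fell. The windows are examples: EIF1, which rose, and EIF4EBP2, EIF4G1 and EIF4G2, which fell with smaller p than EIF2S3 and EIF5A2, also have the run. The sequence CACGTG was in the windows of 12 of the 47 genes (25.5%, against 12.4% of tested protein-coding genes and 7.26% of all windows), and TGATGCAA, searched on both strands as well, was in none of them (0.722% of those genes and 0.866% of all windows). A match is a description of these letters and not of a bound factor.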

How the data were processed

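The submitters' processing notes list Trimmomatic 0.38, the aligner HISAT2 2.2.1, featureCounts 2.0.1 and build hg38. The authors deposited raw counts per Ensembl gene, 1 table for each of the 4 libraries, with no normalization and no pooling. Alignment ignored strand according to the study's methods, so reads of overlapping and antisense genes cannot be told apart, and how reads that fit several genes were treated is not stated there. Total counts were 23465029 and 19257217 for T4A and 33063535 and 24695291 for WT. Of 62700 identifiers, 60877 were named from GENCODE release 44, whose versions they match (the methods name release 38). That annotation, lifted to another build, gave names, transcript lengths and overlaps, and coordinates are RefSeq's on GRCh38.

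Genes were kept with filterByExpr (18139), and the contrast of T4A against WT was fitted with edgeR 4.0.16 under R 4.3.3, using TMM factors, glmQLFit, glmQLFTest and Benjamini-Hochberg adjustment. A call is an adjusted p under 0.05, and the SE is the log2 fold change divided by the root of its F statistic. With 2 libraries in each group, the smallest p of an exact permutation test is 0.333, so the test borrows its spread from all genes (the common biological coefficient of variation was 0.114). Replicates are biological in the study's words, but no label names separate cultures, and p-values therefore reflect variation between libraries that may be technical. Replicates of a group differed by more than counting noise (chi-square per degree of freedom 4.56 for T4A and 5.66 for WT). TPM divide counts by the length of the GENCODE canonical transcript. The length trend was removed with a loess of each library's log ratio on log2 transcript length (span 0.5), given to edgeR as offsets. The fits were tested on simulated data with known changes. Those data held no length trend, so they could not show how fully it was removed.

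All genes of the rule are accounted for by symbol, values per library are given for regulators and called genes, and the 6 partner genes with the smallest p were to be named, 1 of which is not reported here. The genes and lists were chosen with earlier results of these data known. Alternatives were median-ratio, upper quartile and no scaling factors, 2 other filters (none, and an average of 1 CPM or more), limma-voom (limma 3.58.1), DESeq2 1.42.0, each library left out, a replicate block, and the length trend removed, with the block as well. Trends with union exonic and with coding length were added after seeing the data.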

Additional observations from a re-analysis of the deposited data

How the results depend on the processing

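In 16 alternative settings, 6 of the 21 called genes kept their call in all, namely EIF1, EIF2S2, EIF3I, EIF3K, EIF4EBP1 and EIF4EBP2. For EIF3I, EIF3K and EIF4EBP1, whose transcripts are short, the removal of the trend on transcript length was incomplete. Calls of factor genes numbered 10 higher and 6 lower, and with a median log2 fold change of 0.05 their balance moved with the scaling. Upper quartile factors gave 16 higher (median 0.13, eIF3 median 0.25), and library totals gave 6 higher and 10 lower, 3 eIF3 genes higher and medians of -0.026 and 0.088. The eIF3 median, 0.17, was 0.18 with median-ratio factors and in DESeq2 (0.1812) and 0.14 without a filter (0.1395). With the length trend removed, 2 factor genes were lower, 2 regulators and 9 partner genes were called in either direction and the eIF3 median was 0.1402. With union exonic length, 16 factor genes were higher, 3 lower and 2 regulators called (medians 0.11 and 0.26). With coding length, 2 factor genes were lower and 3 regulators called (eIF3 median 0.1866), EIF4G2 and EIF4G3 lost their calls, EIF3A (0.00285) and EIF4G1 (0.07995) changed sign and were not called, and EIF5B (0.1975, adjusted p = 0.0205) changed sign and was called higher. These 2 length measures were chosen after seeing the data, and the cause of these shifts was not tested. Without 1 library, the factor genes' median lay between 0.021 and 0.086 and that of eIF3 between 0.099 and 0.17. Calls of EIF2B1, EIF2S3, EIF3D, EIF3F and EIF5A2 were lost without at least 1 library. Values of uncalled genes changed sign 76 times, in 19 genes. Fold changes with a group reduced to 1 library assume that it varies like the other group.

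Replicate numbers are shared by the labels, but deviations of same-numbered libraries correlated at -0.0057, so the numbers were not taken to pair them. With the replicate block, 11 factor genes were higher, 7 lower and 6 eIF3 genes higher, and no call was lost. Block and length trend together gave 12 higher, 2 lower and 2 regulators called (eIF3 median 0.1405), and EIF5B was called higher (0.171, adjusted p = 0.0277). Counts under 100 in a library, as for EIF2AK3 and EIF4EBP3, limit what can be seen.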

Other observations

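Outside the comparisons above, 2 further genes of the partner list stood out by size, chosen after their values were seen. PPP1R15A, the stress-inducible subunit of the eIF2 phosphatase, had 15.9 and 14.6 CPM in T4A against 9.90 and 9.64 CPM in WT (log2 fold change 0.64 ± 0.14, adjusted p = 0.00223), while its constitutive counterpart PPP1R15B had 33.9 and 33.8 against 49.9 and 49.1 CPM (-0.55 ± 0.08). PAIP2B, an inhibitor of the poly(A)-binding protein, had 16.5 and 14.4 CPM in T4A against 24.3 and 22.3 CPM in WT (-0.59 ± 0.12, adjusted p = 0.000871).

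The lncRNA gene that shares exons with EIF4A1 was called higher in T4A (log2 fold change 0.85 ± 0.23, adjusted p = 0.00896), with 142 and 141 counts in T4A against 118 and 105 counts in the deeper WT libraries. Other values of the EIF4A1 locus came from SENP3, the upstream partner in the read-through gene, which had a log2 fold change of 0.19 ± 0.10 and was not called.

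The ratio of EIF1 to EIF5, whose proteins have opposite effects on the stringency of start codon choice, was 4.13 and 3.67 in TPM in T4A and 2.93 and 2.66 in WT, and the groups did not overlap. The ratio of EIF4EBP1 to EIF4E was 73.7 and 78.9 against 52.5 and 60.3. Transcripts of EIF1, EIF5, EIF4EBP1 and EIF4E have 2338, 5710, 827 and 2427 bases. The part of the length trend in both ratios was not tested.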
